A study of Homo sapiens with 6 samples.

Results

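Interferon regulatory factors (IRFs) and signal transducers and activators of transcription (STATs) are the transcription factors that carry interferon and cytokine signals to the genome. Of 9 listed family genes, chosen by name, 8 had a row among the 11081 gene rows of the table: IRF1, IRF2, IRF3, IRF7, IRF9, STAT2, STAT3 and STAT5B. STAT6 was not analysed here. All 8 were among the 10008 genes tested. The cells were T24, a line established from a human bladder cancer. One group held a control short hairpin (shControl, genotype given as WT) and the other a hairpin against the long noncoding RNA BLACAT3 (shBLACAT3, genotype given as BLACAT3 knockdown), both brought in by lentivirus, with puromycin used to obtain stable cells. Each group had 3 RNA-seq libraries, 6 in all. Whether replicates were separate cultures is not stated, so a p-value here reflects library-to-library spread alone, and that may be technical. How many hairpin sequences or clones were used is not given in the sources used here.

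Latent STAT proteins are phosphorylated by JAK kinases at cytokine receptors, pair up and enter the nucleus, where most STAT dimers bind the palindromic GAS element. Type I and type III interferons assemble the complex ISGF3, which holds STAT2 and IRF9 and binds the interferon-stimulated response element (ISRE). IRF3 and IRF7 are switched on by kinases below the sensors of foreign nucleic acid and drive the interferon genes themselves, while IRF1 activates and IRF2 mostly represses genes through overlapping sites. These factors act largely through phosphorylation, which an RNA level does not show.

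The values were FPKM, fragments per kilobase of transcript scaled to library size, which can be compared between genes because they are per length. They summed to between 211958 and 226953 per library over the listed genes, and between 17 and 65 rows per library were listed at 0. The read depth is unknown. The level of the targeted RNA was not analysed here, so the group labels were not checked against it. Of 16 urothelial and epithelial markers 5 were measured, KRT7, KRT8, KRT18, PPARG and FOXA1, and together they summed to 180 to 211 FPKM in shControl and to 124 to 143 in shBLACAT3 libraries. KRT8 and KRT18 made up most of this sum and fell (means 60.7 and 22.1 FPKM, and 112.0 and 74.2 FPKM), while KRT7 (means 19.97 and 32.0) and PPARG (3.76 and 4.71) were higher in every shBLACAT3 library without passing the test, with adjusted p of 0.0968 and 0.146 in limma. FOXA1 (2.53 and 1.88) was lower in every shBLACAT3 library and did not pass (0.0989). The other 11, among them the uroplakins, GATA3 and CDH1, were not analysed here. Of 12 leukocyte markers 1 was measured, the macrophage gene CD68, whose FPKM ran from 0.686 to 1.22 in shControl and from 0.0038 to 0.624 in shBLACAT3 libraries, and the 6 endothelial markers were not analysed here.

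IRF1 fell in shBLACAT3 cells, IRF7 fell with a call close to the threshold, and the other 6 factors did not pass the test. A gene was called when its adjusted p, from limma on log2(FPKM + 1) with Benjamini-Hochberg adjustment over all 10008 genes, was under 0.05. By this rule 2 of the 8 genes were lower and 0 higher, where 9.37% of all tested genes were called in either direction and 6.8% were called lower. The call of IRF7 (adjusted p 0.0482 in limma) was lost when any 1 library was left out. At an unadjusted p under 0.05 the count of lower genes was 3. The mean log2 level of all 8 was lower in shBLACAT3 cells, with a median log2 difference of -0.28, against -0.0025 over all tested genes, of which 50.6% were lower. The groups did not overlap in 4 of the 8 genes (IRF1, IRF2, IRF7 and STAT3), and each of the 4 was lower in every shBLACAT3 library, where the groups of 18.6% of all tested genes stood apart in this way. In bulk RNA a lower level in all cells and fewer cells that express the gene cannot be told apart.

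**Figure D1:**
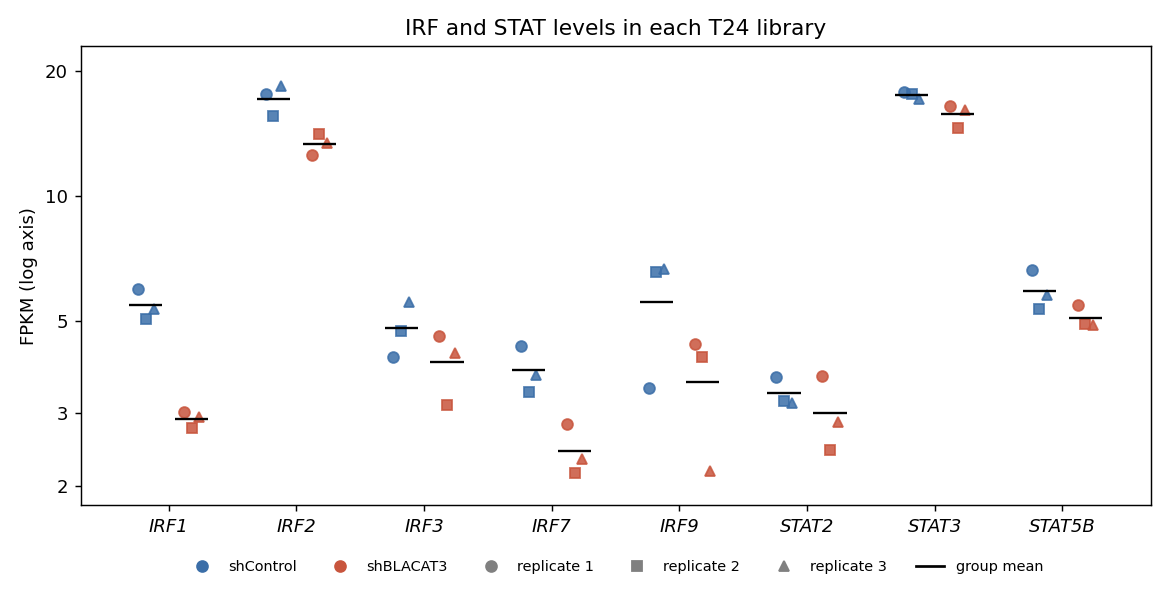
FPKM of the 8 IRF and STAT genes on a log axis, with 1 point per library (shControl blue, shBLACAT3 red, marker shape for the replicate) and a black line at each group mean. IRF1 separates most widely, with shControl libraries at 5.05 FPKM or more and shBLACAT3 libraries at 3.02 or less, while IRF3, IRF9, STAT2 and STAT5B overlap.

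IRF1, a factor that interferon and other cytokines induce and that drives antigen presentation genes, stood at 5.96, 5.05 and 5.34 FPKM in shControl replicates 1, 2 and 3. In shBLACAT3 replicates 1, 2 and 3 it stood at 3.02, 2.76 and 2.95 FPKM. Every shBLACAT3 library was thus below every shControl library, and the gap between the groups was wider than the spread within either. The means were 5.45 ± 0.465 and 2.91 ± 0.136 FPKM (SD, n = 3 per group), a level 1.88-fold lower, and the log2 difference on the log2(FPKM + 1) scale was -0.72 (SE 0.09, adjusted p 0.00395 in limma). IRF1 kept its call in each of 14 other settings, with an adjusted p of at most 0.023 when any 1 library was left out. Gene models on the opposite strand overlap its exons, so the split of reads with them is uncertain, as described below.

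The promoter of IRF1 is shown because interferon acts on this gene through a GAS element, and that of IRF9 because it was the other window of these genes to hold those letters. Promoter windows, from 250 bases before to 50 after the start, were taken from RefSeq (GRCh38.p14) and were matched for 6 of the 9 listed genes, namely IRF1, IRF9, STAT2, STAT3, STAT5B and STAT6. The bases before the start are printed, at chr5:132490774-132491023 on the minus strand for IRF1 and chr14:24161015-24161264 on the plus strand for IRF9, with the GAS letters TTCNNNGAA in capitals.
IRF1 promoter: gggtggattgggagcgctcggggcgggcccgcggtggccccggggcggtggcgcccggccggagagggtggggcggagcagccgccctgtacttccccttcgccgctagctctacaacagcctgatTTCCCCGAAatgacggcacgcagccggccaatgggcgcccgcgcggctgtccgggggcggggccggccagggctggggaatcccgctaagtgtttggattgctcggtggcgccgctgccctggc
IRF9 promoter: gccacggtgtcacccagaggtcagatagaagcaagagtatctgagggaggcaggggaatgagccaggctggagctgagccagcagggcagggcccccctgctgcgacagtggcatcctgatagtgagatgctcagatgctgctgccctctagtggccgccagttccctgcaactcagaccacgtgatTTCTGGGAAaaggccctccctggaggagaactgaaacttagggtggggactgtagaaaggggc
In IRF1 the match was TTCCCCGAA, 124 to 116 bases before the start, and in IRF9 it was TTCTGGGAA, 63 to 55 bases before the start. TTCNNNGAA reads the same on both strands, and 7.66% of all 35116 windows held it. The ISRE core (GAAA, any 2 bases, then GAAA, on either strand) was in 0 of the 6 windows and in 3.57% of all windows. The longer GAS form that STAT6 prefers, with 4 bases of any kind between TTC and GAA, was in 0 of the 6 and in 6.44% of all. The Sp1 box GGGGCGGGG, on either strand, was in the windows of IRF1 and STAT6 and in 15.7% of all. These matches describe letters and not bound sites, and a window without a match says nothing of sites elsewhere.

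IRF2, which occupies IRF1 sites and counteracts it, stood at 17.6, 15.6 and 18.4 FPKM in the shControl libraries and at 12.5, 14.1 and 13.4 in the shBLACAT3 libraries. The groups did not overlap, but the log2 difference of -0.34 (SE 0.08) fell just short of the threshold, with an adjusted p of 0.053 in limma. Its 95% interval ran from -0.54 to -0.14. The gene passed when the filter on low values was lowered to 0.1 FPKM or dropped (adjusted p 0.049 in limma). Both settings kept the same genes, so they are the same fit. IRF2 also passed with array weights (0.0395), and its adjusted p lay between 0.0626 and 0.182 when 1 library was left out.

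Within each library, the FPKM of IRF1 relative to IRF2 was 0.338, 0.325 and 0.291 in shControl and 0.241, 0.196 and 0.22 in shBLACAT3 cells. Such a ratio does not depend on the scaling between libraries. The mean log2 ratio differed by -0.54 between the groups, which did not overlap. An exact two-sided permutation test gave p = 0.1, the smallest that 3 against 3 libraries allow, and 0.25 after adjustment over the 5 ratios tested. IRF1 relative to STAT3 went from 0.335, 0.287 and 0.312 to 0.183, 0.188 and 0.183, a log2 difference of -0.75, again without overlap and with the same exact p of 0.1 and adjusted p of 0.25.

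**Figure D2:**
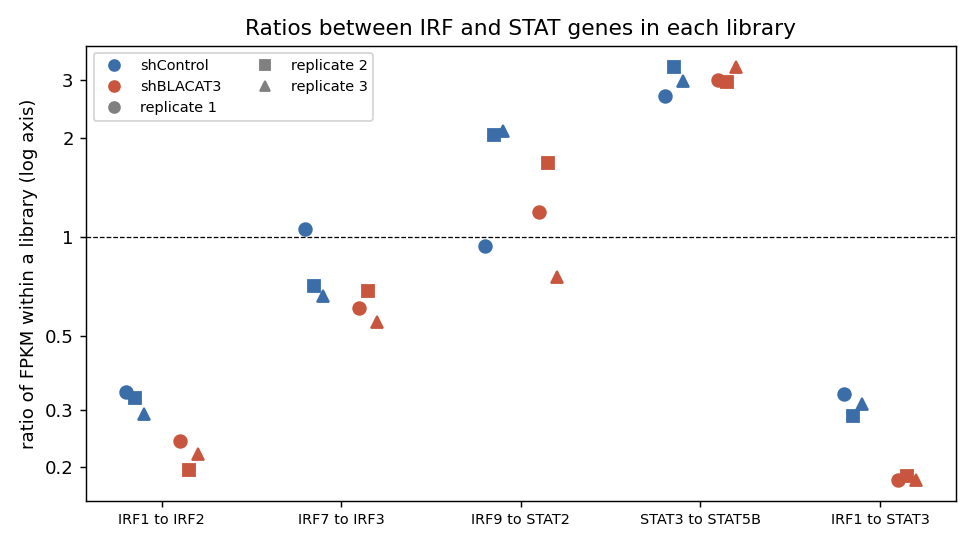
Ratio of the FPKM of 2 genes within each library, on a log axis with a dashed line at 1, with 1 point per library (shControl blue, shBLACAT3 red, marker shape for the replicate). The groups separate for IRF1 to IRF2 and for IRF1 to STAT3, and overlap for the other 3 ratios.

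IRF7, the factor that amplifies interferon production and is itself an interferon-induced gene, stood at 4.34, 3.37 and 3.7 FPKM in shControl and at 2.82, 2.15 and 2.33 in shBLACAT3 libraries. The groups did not overlap, and the means of 3.81 ± 0.495 and 2.44 ± 0.348 FPKM (SD, n = 3 per group) put the level 1.56-fold lower. The log2 difference was -0.48 (SE 0.11) with an adjusted p of 0.0482 in limma, close to the threshold. This call was lost without any 1 of the 6 libraries (adjusted p 0.0545 to 0.158), with quantile normalization (0.0502) and with array weights (0.0613), while the log2 difference stayed between -0.62 and -0.40 in all 14 other settings.

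IRF3, the constitutive partner of IRF7 that is activated without new synthesis, had 4.11, 4.74 and 5.57 FPKM in shControl and 4.62, 3.14 and 4.2 in shBLACAT3 libraries. These ranges overlapped, and the log2 difference of -0.22 had a 95% interval from -0.58 to 0.13 (adjusted p 0.385 in limma). It was -0.13 without shControl replicate 3 and -0.10 without shBLACAT3 replicate 2. In the GENCODE 29 annotation, 19.3% of the exon bases of IRF3 lie under exons of BCL2L12 on the opposite strand, which stood at 9.48 to 13.7 FPKM, above IRF3 in every library. The library kit marks strand per the labels, but the strand setting of the counting is not given in the sources used here, so the split of reads between these genes is uncertain. IRF7 relative to IRF3 was 1.06, 0.711 and 0.665 in shControl and 0.612, 0.686 and 0.555 in shBLACAT3 libraries, with overlap between the groups (exact permutation p = 0.2, adjusted 0.333). The log2 difference of this ratio was -0.37, and -0.16 without shControl replicate 1.

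IRF9, the DNA-binding subunit of ISGF3, varied most within the groups. It stood at 3.45, 6.57 and 6.68 FPKM in shControl replicates 1, 2 and 3 and at 4.39, 4.11 and 2.17 in shBLACAT3 replicates 1, 2 and 3. The lowest shControl library lay under 2 of the shBLACAT3 libraries, and the SD was 33.0% of the mean in shControl and 33.9% in shBLACAT3 cells, against 1.9% to 21.1% for the other 7 genes. The log2 difference of -0.52 (SE 0.28) did not pass (adjusted p 0.299 in limma, 95% interval -1.20 to 0.15). It ran from -0.78 without shControl replicate 1 to -0.28 without shBLACAT3 replicate 3. This interval reaches a larger fall than that of IRF1.

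A second gene model, AL136295.5, lies on the same strand as IRF9 and shares exons with it and with its neighbour RNF31. It covers 48.4% of the exon bases of IRF9, so fragments from the shared exons can be given to either. AL136295.5 was listed at 2.84, 1.56 and 1.87 FPKM in shControl and at 1.07, 1.34 and 1.98 in shBLACAT3 libraries, and it was highest, within each group, in the library where IRF9 was lowest. The sums of both were 6.29, 8.13 and 8.56 FPKM in shControl and 5.47, 5.45 and 4.16 in shBLACAT3 libraries. These no longer overlapped, as was so in this direction for 18.6% of all tested genes. Of the exon bases of AL136295.5, 36.1% are shared with RNF31. The sum may thus hold RNF31 fragments and is not a corrected level of IRF9. Fitted in place of IRF9, in an alternative added after the data were seen, the sum gave a log2 difference of -0.52 (SE 0.14) and an adjusted p of 0.0709 in limma, so it did not pass either. How the fragments were split was not tested.

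**Figure D3:**
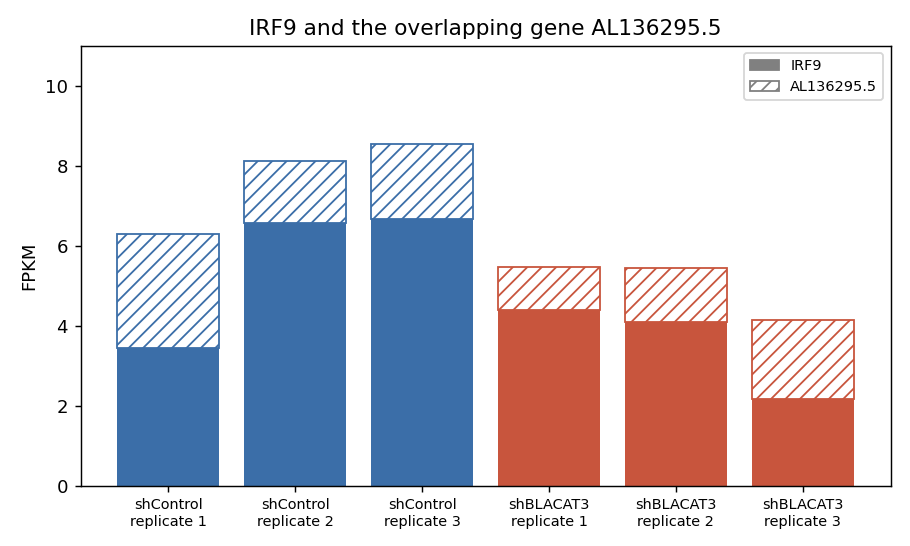
FPKM of IRF9 (filled bars) with the FPKM of the overlapping gene AL136295.5 stacked on top (hatched), 1 bar per library, shControl blue and shBLACAT3 red. IRF9 alone overlaps between the groups, while the stacked heights are 6.29 to 8.56 in shControl and 4.16 to 5.47 in shBLACAT3 libraries.

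STAT2, the subunit of ISGF3 that carries its activation domain, had 3.66, 3.21 and 3.18 FPKM in shControl and 3.69, 2.45 and 2.86 in shBLACAT3 libraries. The highest value of all was in shBLACAT3 replicate 1, so the groups overlapped. The log2 difference was -0.13 with a 95% interval from -0.44 to 0.17 (adjusted p 0.563 in limma). It was -0.25 without shBLACAT3 replicate 1, -0.03 without shBLACAT3 replicate 2, -0.08 without shControl replicate 1 and with quantile normalization, and -0.05 with array weights. IRF9 relative to STAT2 was between 0.943 and 2.1 in shControl and between 0.759 and 1.68 in shBLACAT3 libraries (log2 difference -0.47, exact permutation p = 0.5, adjusted 0.5), and the difference ran from -0.85 without shControl replicate 1 to -0.17 without shBLACAT3 replicate 3.

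STAT3, which answers to IL-6 family cytokines and growth factors, was the steadiest of the 8 genes in shControl cells, with 17.8, 17.6 and 17.2 FPKM. In shBLACAT3 cells it stood at 16.5, 14.6 and 16.1 FPKM, just under every shControl library. The log2 difference was -0.15 (SE 0.07), its 95% interval ran from -0.31 to 0.01, and it did not pass (adjusted p 0.228 in limma). The value was -0.10 without shBLACAT3 replicate 2. STAT5B, a mediator of growth hormone and IL-2 family signals, had 6.64, 5.35 and 5.77 FPKM in shControl and 5.47, 4.93 and 4.89 in shBLACAT3 libraries. These overlapped, and the log2 difference of -0.18 had a 95% interval from -0.41 to 0.05 (adjusted p 0.289 in limma), and was -0.11 without shControl replicate 1. STAT3 relative to STAT5B lay between 2.68 and 3.28 in shControl and between 2.97 and 3.3 in shBLACAT3 libraries, a log2 difference of 0.06 (exact permutation p = 0.5, adjusted 0.5) that became -0.02 without shControl replicate 1. STAT5A, the near-identical neighbour of STAT5B, was not analysed here, and the split of reads between the pair is uncertain.

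**Figure D4:**
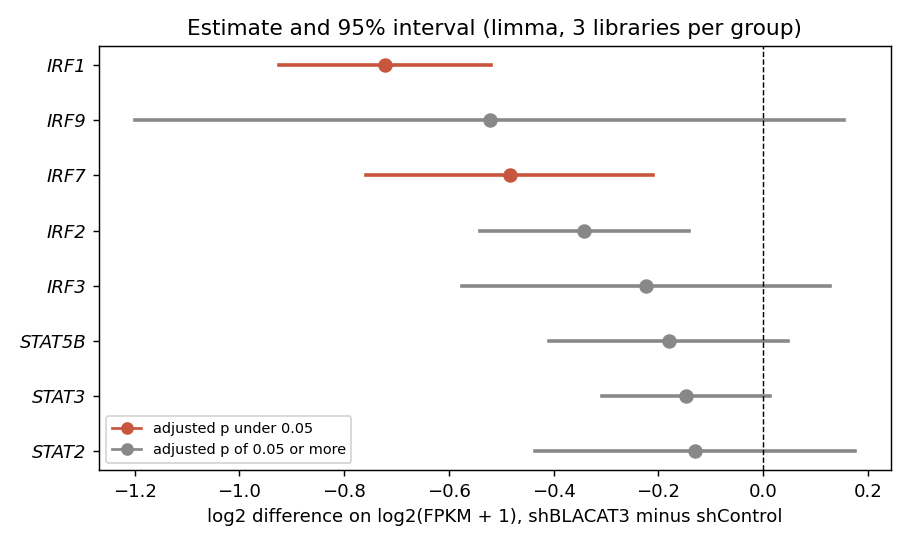
Log2 difference (shBLACAT3 minus shControl, on log2(FPKM + 1)) of each of the 8 genes, with the 95% interval from limma as a bar, red where the adjusted p is under 0.05. All 8 estimates lie below 0, and the intervals of IRF1, IRF7 and IRF2 do not reach it.

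In shControl cells the levels, as mean FPKM, ran in the order STAT3 (17.5), IRF2 (17.2), STAT5B (5.92), IRF9 (5.57), IRF1 (5.45), IRF3 (4.8), IRF7 (3.81) and STAT2 (3.35). STAT3 and IRF2 overlapped with each other and stood apart from the rest, while each of the other neighbours in this order overlapped. In shBLACAT3 cells the order was STAT3 (15.8), IRF2 (13.3), STAT5B (5.09), IRF3 (3.98), IRF9 (3.56), STAT2 (3.0), IRF1 (2.91) and IRF7 (2.44). Here STAT3, IRF2 and STAT5B each stood apart from the next gene, and the neighbours below STAT5B overlapped. IRF1 went from rank 5 to rank 7.

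Genes with the pattern most like that of IRF1 over the 6 libraries were ITGA5, an integrin chain, ATP8B2, a phospholipid flippase, and SNHG32, a host gene of small nucleolar RNAs, with a Pearson correlation of log2(FPKM + 1) of 0.999, 0.998 and 0.998. The mean FPKM of ITGA5 was 26.8 ± 4.15 in shControl and 6.92 ± 0.631 in shBLACAT3 cells (SD, n = 3 per group). For IRF7 they were ZNF697, MRC2, a collagen receptor, and BBLN, each at 0.998 or 0.997. Since the 6 libraries fall into the same groups, these values carry the difference between the groups, and they are given as a description only.

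Outside the 8 genes, IRF5, a factor of inflammatory cytokine genes, lay under the filter of a mean of 1 FPKM. It stood at 1.04, 0.858 and 0.804 FPKM in shControl and at 0.386, 0.393 and 0.368 in shBLACAT3 libraries, and without the filter it passed with a log2 difference of -0.46 (adjusted p 0.0123 in limma). IRF4, IRF8 and STAT4 were not analysed here. Of the 3 co-repressors that bind IRF2, 0 passed (median log2 difference -0.12), with 0 also higher. IRF2BP1 had a log2 difference of -0.28 (adjusted p 0.178 in limma) and IRF2BP2 of -0.12 (0.261).

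Upstream of the STATs, 4 of 14 tested receptor chains of JAK-STAT cytokines fell and 0 rose, with a median log2 difference of -0.21, where 6.8% of all tested genes fell. IL7R, the IL-7 receptor chain, had the largest fall, from 4.09 ± 0.347 to 0.0998 ± 0.0387 FPKM (SD, n = 3 per group), a log2 difference of -2.21. IL7R passed the filter on low values only through shControl cells. It is among the 4, so that count leans on a gene kept through the group where it was high. IL6R was kept in the same way (means 1.67 FPKM in shControl and 0.575 in shBLACAT3 cells) and was not called (adjusted p 0.0926 in limma). OSMR, which signals for oncostatin M through STAT3, fell from 26.4 ± 0.289 to 18.5 ± 0.537 FPKM (log2 difference -0.49). IFNLR1, the specific chain of the type III interferon receptor, fell from 2.14 ± 0.361 to 1.21 ± 0.0785 FPKM (-0.50), and IL13RA1, which signals through STAT6, from 26.9 ± 1.35 to 21.5 ± 0.727 FPKM (-0.31). The calls of IFNLR1 and IL13RA1 were lost without shControl replicate 1 or 2 or shBLACAT3 replicate 1 or 2, and that of IL13RA1 also without shControl replicate 3 (adjusted p 0.0613 to 0.127 in limma). IFNLR1 also lost its call with quantile normalization (0.0537), IL13RA1 with median scaling (0.0513), and both in a fit with the replicate number as a block (0.0761 and 0.0792). The count for the list was 2 with the block and without shControl replicate 1 or 2 or shBLACAT3 replicate 2. Of the type I interferon receptor chains, IFNAR1 had a log2 difference of 0.12 (adjusted p 0.395) and IFNAR2 of -0.39 (0.0555).

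None of the 3 tested JAK kinases passed (0 lower, 0 higher, median log2 difference -0.07). JAK1 stood at 42.9, 42.6 and 42.9 FPKM in shControl and at 38.5, 42.2 and 41.2 in shBLACAT3 libraries (adjusted p 0.461 in limma), and TYK2 at a mean of 5.75 and 6.14 FPKM (adjusted p 0.493). Of 12 tested adaptors and kinases that lead to IRF3 and IRF7, 1 rose and 0 fell (median 0.07), a share close to the 9.37% called among all tested genes. The gene that rose was MYD88, an adaptor of most Toll-like receptors, with 3.28, 3.18 and 3.45 FPKM in shControl and 7.62, 7.19 and 8.21 in shBLACAT3 libraries. Its log2 difference was 1.01 (SE 0.08, adjusted p 0.000745 in limma), opposite in sign to that of IRF7. The count of called genes in this list was 2 without shBLACAT3 replicate 3 and with the filter lowered or dropped. With the filter dropped the added gene was TBKBP1, which was lower in shBLACAT3 cells. Its means were 1.11 FPKM in shControl and 0.527 in shBLACAT3 cells (log2 difference -0.47, adjusted p 0.0231 in limma).

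Of 15 tested inhibitors of JAK-STAT signalling 2 fell and 0 rose, with a median of 0.03. Among all tested genes 6.8% were called lower and 9.37% in either direction. A count this small is not read as a result about the list. USP18, which binds IFNAR2 and limits interferon signalling, fell from 12.7 ± 1.16 to 6.31 ± 0.148 FPKM (SD, n = 3 per group), and SOCS3, the feedback inhibitor that STAT3 induces, from 17.3 ± 1.74 to 10.7 ± 1.02 FPKM. The count was 4 without shBLACAT3 replicate 3. SOCS1 stood at 3.41 FPKM in both group means. USP18 also stands among the ISGF3 targets and SOCS3 among the STAT3 targets described next.

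Known targets of the factors were listed by factor, and a target can answer to several of them. Some genes stand in more than 1 list. Of 23 tested ISGF3 targets 19 fell and 0 rose, against 6.8% lower over all tested genes. The median log2 difference was -2.09, while IRF9 and STAT2 themselves did not pass. On the log2(FPKM + 1) scale, which understates the change of low genes and so sets this order, the falls were largest for OASL, IFIT1, IFIT2 and IFI44, all interferon-induced. OASL fell from 38.9 ± 3.21 to 0.048 ± 0.0154 FPKM (SD, n = 3 per group). IFIT1 fell from 59.2 ± 0.247 to 0.808 ± 0.203 FPKM, IFIT2 from 91.4 ± 2.9 to 1.8 ± 0.0797, and IFI44 from 58.9 ± 4.45 to 1.54 ± 0.375. OASL, IFIT1, OAS2, RSAD2 and CMPK2 averaged under 1 FPKM in shBLACAT3 cells, so they passed the filter on low values only through shControl cells. They are among the 19, so that count leans on genes kept through the group where they were high.

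Of 12 tested IRF1 targets 8 fell and 0 rose, with a median log2 difference of -0.96, against 6.8% lower over all tested genes. Of the IRF1 targets 17 had a row, and those not tested lay under the filter. Among these IL18BP had a higher mean in shBLACAT3 cells (0.471 and 0.715 FPKM, adjusted p 0.276 in limma without the filter). The means of GBP2, CD274, NLRC5 and IL15 were lower. The chemokine gene CXCL10 stood at 5.87, 5.3 and 5.48 FPKM in shControl libraries, and it was listed at 0 in 2 shBLACAT3 libraries and at 0.0613 in the other. CXCL11 stood at 1.98 to 2.21 FPKM and at 0 to 0.168. BST2, the tether that holds budding virus, stood at 1.34 to 2.84 FPKM in shControl cells and at 0 to 0.145 in shBLACAT3 cells, and PSMB9, an immunoproteasome subunit, fell from 6.46 ± 0.495 to 1.68 ± 0.11 FPKM (SD, n = 3 per group). CXCL10, CXCL11 and BST2 passed the filter on low values only through shControl cells. They are among the 8, so that count leans on genes kept through the group where they were high. CXCL11 and BST2 lay under the filter in the 3 fits that left out a shControl library.

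The ISRE core described for the promoters is shown for those of these 8 leading targets whose window before the start held it, on the strand of the gene, with the core in capitals. They lie at chr10:89392492-89392544 (plus strand) for IFIT1, chr1:78649756-78649788 (plus) for IFI44, chr4:76023694-76023733 (minus) for CXCL10 and chr19:17405730-17405775 (minus) for BST2, in GRCh38.p14.
IFIT1: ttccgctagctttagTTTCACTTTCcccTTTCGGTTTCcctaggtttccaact
IFI44: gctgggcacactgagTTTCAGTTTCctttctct
CXCL10: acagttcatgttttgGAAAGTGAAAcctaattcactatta
BST2: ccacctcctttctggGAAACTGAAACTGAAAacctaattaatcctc
In IFIT1 and BST2 the core stood in a pair, overlapping in BST2, where a GAS match overlaps it too. The IFI44 core lies 18 to 9 bases before the start used here and 60 to 51 bases before a second start. Only the bases after the second start were found in a GENCODE 29 transcript of IFI44. Of the windows of the tested ISGF3 targets, 14 of 28 held the ISRE core, and of those of the tested IRF1 targets 9 of 13, beside 3.57% of all windows. These genes were listed for what is known of their regulation, so the shares describe the lists and are no finding about them. A window was found for 19 of the 23 ISGF3 targets and 11 of the 12 IRF1 targets. Promoter matches for the ISRE core and for GAS were also found for MYD88, which rose.

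Of 16 tested STAT3 targets 7 fell and 0 rose (median log2 difference -0.32), beside 6.8% lower among all tested genes. JUNB, an AP-1 subunit, fell from 37.4 ± 2.49 to 16.0 ± 1.81 FPKM (SD, n = 3 per group), BCL3, a nuclear IkB protein, from 4.86 ± 0.234 to 1.67 ± 0.102, and CEBPD, an acute phase transcription factor, from 6.74 ± 0.925 to 4.09 ± 0.239, next to SOCS3. The call of CEBPD was lost without shControl replicate 1 or 3 (adjusted p 0.0528 and 0.0538 in limma), and the count for the list was 4 in each of these settings. Of 7 tested STAT5 targets 1 fell, the transcription regulator ID1, from 70.6 ± 8.5 to 38.8 ± 0.826 FPKM, and 0 rose. Beside it, 6.8% of all tested genes were called lower and 9.37% in either direction, and a count this small is not read as a result about the list. The count was 2 without shBLACAT3 replicate 2, with the replicate block and with the filter lowered or dropped, and 3 with array weights. The 2 tested STAT6 targets, IL4R and SOCS1, did not pass (adjusted p 0.895 and 0.94 in limma), and the sign of both changed in some settings. The epithelial markers moved in both directions beside these lists, as given above, and their part in the list counts was not tested.

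**Figure D5:**
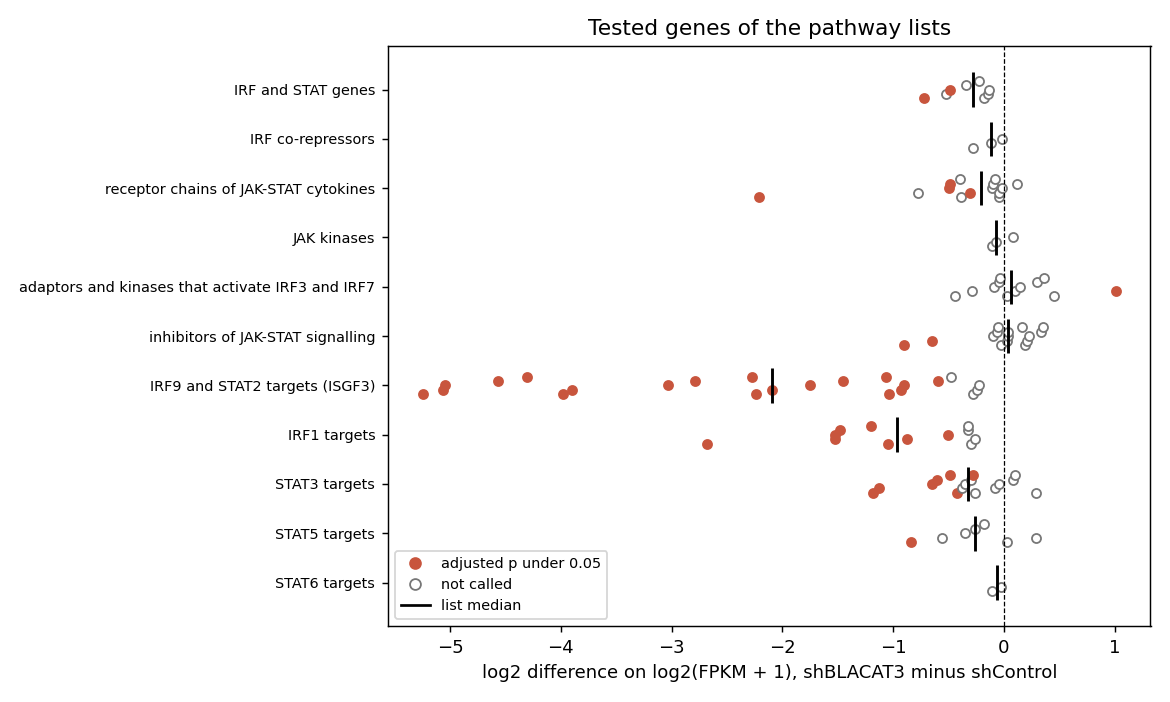
Log2 difference (shBLACAT3 minus shControl, on log2(FPKM + 1)) of every tested gene in each list shown, 1 point per gene, filled where the adjusted p is under 0.05, with a black line at the list median. The list of other IRF and STAT family genes and the marker lists are not shown. The ISGF3 targets reach furthest to the left (median -2.09), while the IRF and STAT genes themselves lie between -0.72 and -0.13.

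IRF1 also overlaps other gene models on the opposite strand. C5orf56 covers 22.0% of its exon bases and was not analysed here. AC116366.3 covers 6.01% of the exon bases of IRF1, and its listed values ran from 0.0142 to 16.7 FPKM over the libraries without following the groups (0.762, 0.0777 and 9.51 in shControl, 0.355, 16.7 and 0.0142 in shBLACAT3). It stood above IRF1 in shControl replicate 3 and shBLACAT3 replicate 2. With the strand setting of the counting not given, the split of reads between IRF1 and these models is uncertain, as for IRF3.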

How the data were processed

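Total RNA of the 6 T24 samples was sequenced after a strand-marking library kit, per the labels' protocols. The submitters' processing notes name cutadapt, HISAT2 2.1.0 and StringTie, while strand setting, build and annotation were not given in the sources used here. With no unit in the header, the deposited values were taken to be FPKM, judged by their form and by the quantifier listed. Values as low as 2e-06 FPKM occur, so no whole reads were recovered, no count test was run and depth is unknown.

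Columns marked NC and SH were read as shControl and shBLACAT3, and their number as the replicate. Of 11081 rows 11007 were matched to a symbol, and rows of 2 shared symbols were summed. In every row the higher group mean was at least 0.501 FPKM, so genes low in both groups were not analysed here. Those averaging 1 FPKM or more over the 6 libraries were tested with limma 3.58.1 (R 4.3.3) on log2(FPKM + 1), group as the only term, with a mean-variance trend, two-sided. Such fold changes understate the change of low genes. Ratios within a library were tested by exact permutation (scipy 1.17.1). One planned ratio, with STAT6, could not be formed. Overlapping genes came from GENCODE 29, by name only. The fit was tested on simulated data.

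All 8 listed genes with values are named. From each pathway list the rule took up to 4 called genes with the largest absolute log2 fold change, or the 2 with the smallest p where none passed, and the 3 genes most correlated with each called factor. IRF5, IFNAR1, IFNAR2, IL6R, OAS2, RSAD2, CMPK2, TBKBP1, IL18BP, GBP2, CD274, NLRC5, IL15 and the epithelial markers were named after their values were seen. The genes and lists were chosen with earlier results of these data known. Some genes are not reported here. Other settings are in the closing section.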

Additional observations from a re-analysis of the deposited data

How the results depend on the processing

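Each log2 difference of the 8 IRF and STAT genes kept its negative sign in all 113 values recomputed. IRF1 was called in all 14 other settings, and IRF3, IRF9, STAT2, STAT3 and STAT5B in none of theirs. IRF2 (main adjusted p 0.053 in limma) passed with a filter at 0.1 FPKM or none (log2 difference -0.34) and with array weights (-0.37). The filter at 0.1 FPKM removed no gene, so it repeats the fit with no filter, and both count among the 14 settings. IRF7 did not pass with quantile normalization or array weights (-0.43 each), or without any 1 library (-0.56 to -0.40). The log2 ratio of STAT3 to STAT5B ran from -0.0165 (without shControl replicate 1) to 0.1293. SOCS1 turned to 0.0242 with quantile normalization and 0.0354 with array weights, and ran from -0.1626 to 0.182 (without shBLACAT3 replicate 2) when 1 library was left out. IL4R ran from -0.5412 to 0.1507 in such fits, above 0 without shControl replicate 1 or 3 or shBLACAT3 replicate 2. The cause was not tested.

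Over all genes 938 were called, 612 with a replicate block, and 357 (without shControl replicate 1) to 1339 (without shBLACAT3 replicate 3) when 1 library was left out. Of genes in the pathway lists 39 were called, 37 with the replicate block and 32 to 45 over all settings. List counts stayed within 1.5 times in 135 of 154 values. These include lists with 0 called in the main fit that stayed at 0, and the repeated filter setting. The share therefore overstates how steady the counts of the other lists were. Replicate numbers were not taken as pairs: same-numbered libraries correlated in their deviations from the group means at 0.1002, 0.1173 and 0.0896, although each library correlated best with its own number. With the block IRF1 and IRF7 passed (adjusted p 0.0195 and 0.0401 in limma) and IFNLR1 and IL13RA1 did not. Depth is unknown, so precision rests on 3 libraries per group.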
